A study of Mus musculus with 6 samples.

Results

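The alcohol dehydrogenase (Adh), aldehyde dehydrogenase (Aldh) and aldo-keto reductase (Akr) genes were examined in the liver of mouse pups with and without an active human SRY transgene. Members were all array probes whose gene symbol began with Adh, Aldh or Akr followed by a digit. There were 53 such probes for 38 gene symbols, among 25697 probes and 18138 symbols on the array. Of these, 7 probes for 4 symbols were Adh, 27 probes for 19 symbols were Aldh and 19 probes for 15 symbols were Akr. In liver, 29 member probes for 21 symbols were bright enough to be tested (4 Adh, 15 Aldh and 10 Akr probes), 12 of them were lower and 1 was higher in hSRY-ON pups, and 16 were not past the threshold.

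All 6 livers came from male pups of the FVB/N background (FVB in the labels) at postnatal day 6. By the study's designations all carried the Signalox-hSRY transgene, a single copy at the H11 locus under the ubiquitous CAG promoter. In the 3 hSRY-OFF pups the transgene was by this designation not recombined, so that it drove the red fluorescent protein DsRed. The study also calls the comparison group of the arrays age-matched controls, and it defines control littermates as lacking Signalox-hSRY. This difference in wording was not resolved here. In the 3 hSRY-ON pups the DsRed stop cassette had been removed by Cre recombinase carried over in the oocyte of Ddx4-Cre mothers, so that FLAG-tagged human SRY and EGFP were expressed. The hSRY-ON pups on the arrays were chosen for not carrying the Ddx4-Cre transgene. The groups therefore differed in SRY and in the fluorescent protein, and by the designations also in Cre recombination in the early embryo, and these cannot be told apart. The mothers of the hSRY-OFF pups, and whether the groups shared litters, were not given in the sources used here, so mother and litter may differ between the groups as well. The study reports efficient recombination in embryos of Ddx4-Cre mothers, whatever the Cre status of the pup. Unrecombined carriers would then be expected mainly from other mothers, and mother and litter could not be told apart from SRY. The study also reports slower growth, little suckling, a lack of milk in the stomach and fatty livers in hSRY-ON pups. Feeding and growth may therefore differ between the groups too, and their part in the differences was not tested. Every liver was 1 array (n = 3 mice per group), so p-values measured the spread between these mice. No probe was assigned to human SRY, and the level of the transgene was not analysed here.

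Alcohol dehydrogenases are zinc enzymes that oxidise alcohols such as ethanol and retinol to aldehydes with NAD+. Aldehyde dehydrogenases oxidise the aldehydes to acids, in the clearance of acetaldehyde and lipid aldehydes and also as single steps of amino acid, folate and retinoid metabolism. Aldo-keto reductases mostly work in the opposite direction and reduce carbonyl groups of sugars, steroids and reactive aldehydes with NADPH. Hepatocytes are a main site of all these reactions.

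The sequence just upstream of the start site is shown for the 4 genes with a fall of at least 2-fold that passed the threshold and for the only gene that rose. The 250 bases before each start were taken from RefSeq for GRCm38.p6, in which 31 of the 38 member genes had a promoter. Each is written 5′ to 3′ on the gene's strand, which is the plus strand for all 5, at chr3:138415247-138415496 for Adh4, chr4:139622644-139622893 for Aldh4a1, chr4:45798772-45799021 for Aldh1b1, chr10:21377050-21377299 for Aldh8a1 and chr6:34353896-34354145 for Akr1b8. Capitals mark a match to 1 of 5 short motifs searched on both strands, namely the SRY and SOX core AACAAT, the CCAAT box CCAAT, the TATA box TATAA, the antioxidant response core TGACNNNGC and the E-box CACGTG.
Adh4: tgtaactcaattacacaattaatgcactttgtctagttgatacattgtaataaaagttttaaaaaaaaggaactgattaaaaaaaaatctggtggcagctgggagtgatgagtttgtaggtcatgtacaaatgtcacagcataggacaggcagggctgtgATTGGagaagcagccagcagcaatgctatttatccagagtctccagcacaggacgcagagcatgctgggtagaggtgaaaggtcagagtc
Aldh4a1: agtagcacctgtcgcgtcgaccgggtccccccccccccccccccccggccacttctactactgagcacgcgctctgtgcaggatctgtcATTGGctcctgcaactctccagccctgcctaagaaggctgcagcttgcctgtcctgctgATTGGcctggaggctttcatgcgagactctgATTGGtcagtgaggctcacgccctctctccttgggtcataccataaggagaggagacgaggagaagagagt
Aldh1b1: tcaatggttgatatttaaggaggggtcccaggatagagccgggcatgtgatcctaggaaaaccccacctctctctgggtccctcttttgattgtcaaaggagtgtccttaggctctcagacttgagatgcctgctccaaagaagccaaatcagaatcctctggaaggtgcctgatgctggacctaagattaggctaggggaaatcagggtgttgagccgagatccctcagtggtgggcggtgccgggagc
Aldh8a1: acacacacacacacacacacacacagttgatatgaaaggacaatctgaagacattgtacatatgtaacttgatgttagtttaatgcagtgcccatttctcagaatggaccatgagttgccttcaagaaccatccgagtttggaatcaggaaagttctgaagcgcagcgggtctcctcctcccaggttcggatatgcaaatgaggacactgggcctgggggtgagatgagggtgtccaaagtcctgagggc
Akr1b8: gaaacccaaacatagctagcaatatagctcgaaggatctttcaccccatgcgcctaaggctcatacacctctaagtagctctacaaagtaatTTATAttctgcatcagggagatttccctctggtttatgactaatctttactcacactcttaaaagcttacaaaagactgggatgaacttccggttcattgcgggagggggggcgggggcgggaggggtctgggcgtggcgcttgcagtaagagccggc

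The capitals in Adh4 and Aldh4a1 are CCAAT boxes on the opposite strand, which begin 90 bases before the start in Adh4 and 161, 102 and 71 bases before it in Aldh4a1. The capitals in Akr1b8 are TATAA on the opposite strand, 158 bases before the start. None of the motifs overlapped another in these windows, and Aldh1b1 and Aldh8a1 held no match (0 of the 5 motifs). The AACAAT core was found in 2 of the 31 member promoters (Akr1c14 and Akr1c6) and in 9.65% of the 27025 promoters of the same length. It was found in 0 of the 8 promoters of genes called lower. CCAAT was found in 16 of the 31 member promoters, against 34.5% of all promoters, and in 3 of the 8 of genes called lower. TATAA was found in 9 members (23.5% of all promoters), TGACNNNGC in 2 (10.1%) and CACGTG in 3 (6.05%). These matches describe the letters of the windows only, and binding was not measured.

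Intensities were background-corrected, quantile-normalized and expressed on the log2 scale, so that a difference of 1 stands for a 2-fold change, and all differences are hSRY-ON minus hSRY-OFF. A probe was tested if its detection p was under 0.01 on at least 3 of the 6 arrays, and was called with an adjusted p under 0.05 (limma, two-sided, Benjamini-Hochberg over the 10734 tested probes). The arrays resembled each other in depth, with 10318 to 10762 probes detected per array, and 27 to 29 of the 53 member probes. The spread between mice was larger in the hSRY-ON group, with a median SD of the member probes of 0.27 against 0.10 in the hSRY-OFF group. Over all tested probes the median SD was 0.21 in hSRY-ON and 0.14 in hSRY-OFF livers, and 0.14 among hSRY-ON arrays without replicate 3. The last value rests on fewer arrays, which lowers a median SD, and the hSRY-OFF group was not reduced in the same way. It therefore cannot show whether replicate 3 accounts for the larger hSRY-ON spread.

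Change was widespread in these livers, and counts of members are to be read against it. Past the threshold were 44.8% of the tested member probes, against 33.1% of all tested probes. Lower in hSRY-ON livers were 41.4% of the members, against 17.3% of all tested probes, and higher were 3.45%, against 15.8%. At least 2-fold lower and past the threshold were 4 member probes, and 6.95% of all tested probes. The median difference of the 29 members was -0.43 on the log2 scale, against 0.02 for all tested probes, and 26 members were below 0 (89.7%, against 48.6% of all). At 16 of the 29 members all hSRY-ON values lay below all hSRY-OFF values, against 24.6% of all tested probes, and at 2 members they all lay above, against 25.4%. In a whole tissue, fewer cells of a type and less RNA per cell cannot be told apart. The members were only described in this way, and no test of the families as groups was made. The number of members called lower was 12 with all arrays. It was 6, 5 and 8 without hSRY-OFF replicates 1, 2 and 3, and 7, 14 and 10 without hSRY-ON replicates 1, 2 and 3. Over all tested probes 1854 were called lower with all arrays. There the counts were 1141, 1191 and 1452 without hSRY-OFF replicates 1, 2 and 3, and 1423, 1667 and 2116 without hSRY-ON replicates 1, 2 and 3. The number of Akr probes called lower was 0, 0, 1 and 1 without hSRY-OFF replicates 1, 2 and 3 and hSRY-ON replicate 1. It was 5 and 3 without hSRY-ON replicates 2 and 3, against 4 with all arrays.

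**Figure D1:**
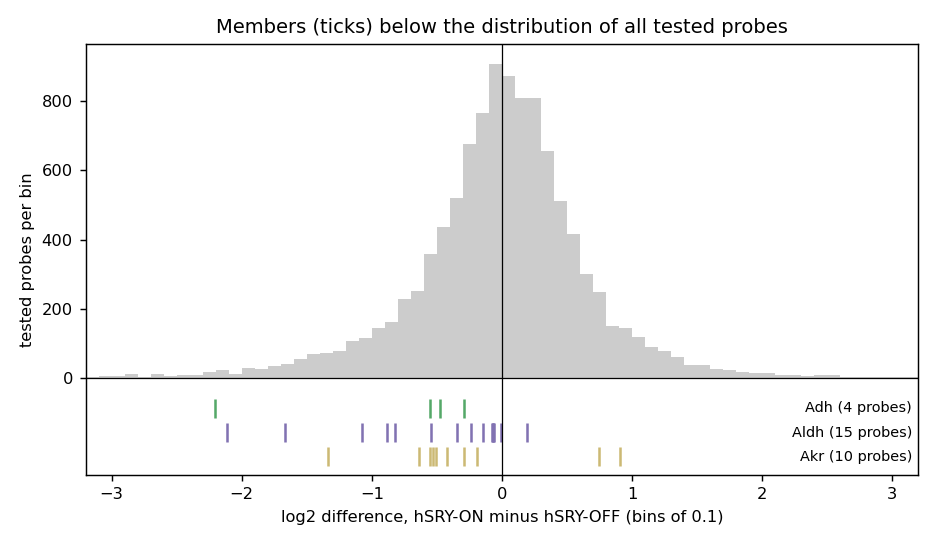
Histogram of the log2 difference in intensity, hSRY-ON minus hSRY-OFF, of all 10734 tested probes in bins of 0.1, cut at 3.2 on both sides, with the differences of the tested Adh, Aldh and Akr probes as ticks below it. All probes centre near 0 (median 0.02), while 26 of the 29 member ticks lie below 0 and reach -2.21 (Adh4).

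All 4 tested Adh probes had lower values in every hSRY-ON liver than in any hSRY-OFF liver, as had 24.6% of all tested probes. Their median difference was -0.51 on the log2 scale. Of the 4, 2 were called lower (limma, 4 at an unadjusted p under 0.05), against 17.3% of all tested probes. The largest difference was that of Adh4, a liver enzyme active on retinol and on long-chain and aromatic alcohols. The log2 intensity of Adh4 (ILMN_1258442) was 8.998, 9.29 and 8.97 in hSRY-OFF livers and 6.92, 6.83 and 6.89 in hSRY-ON livers. The hSRY-ON values lay close together and far below every hSRY-OFF value. The difference of -2.21 ± 0.13 (SE, adjusted p 0.000119 by limma) corresponded to a 4.61-fold fall, which was at rank 105 of the 10734 tested probes when ordered from the largest fall.

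Adh1 encodes the abundant class of alcohol dehydrogenase that carries most of the ethanol oxidation of the liver, and had 2 probes. The log2 intensity of ILMN_2850077 was 13.85, 14.12 and 13.74 in hSRY-OFF and 13.43, 13.56 and 13.07 in hSRY-ON livers. That of ILMN_1258501 was 12.59, 12.87 and 12.57 in hSRY-OFF and 12.23, 12.46 and 11.92 in hSRY-ON livers. The groups did not overlap with either probe, and hSRY-ON replicate 3 was the lowest in both. The first probe was called lower (-0.55 ± 0.17, SE, 1.47-fold, adjusted p 0.0435 by limma) and the second was not (-0.48 ± 0.17, SE, adjusted p 0.0688). The call for Adh1 depended on single arrays, with an adjusted p of 0.104, 0.138 and 0.0600 without hSRY-OFF replicates 1, 2 and 3, and of 0.0803 and 0.0771 without hSRY-ON replicates 1 and 3.

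Adh5, the ancestral class that oxidises the glutathione adduct of formaldehyde and is found in most tissues, was detected with 1 of its 3 probes. The log2 intensity of ILMN_1242178 was 11.28, 11.40 and 11.48 in hSRY-OFF and 11.20, 11.12 and 10.98 in hSRY-ON livers. The values did not overlap but lay close together, and the difference of -0.29 (95% confidence interval -0.58 to -0.00) was not past the threshold (adjusted p 0.107 by limma). Adh7, a stomach enzyme, was detected on 0 arrays. In the RefSeq gene order of chromosome 3 these genes lie in a single cluster, with Adh7 followed by Adh1, Adh6a, Adh6b, a pseudogene, Adh4 and Adh5 at its end.

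**Figure D2:**
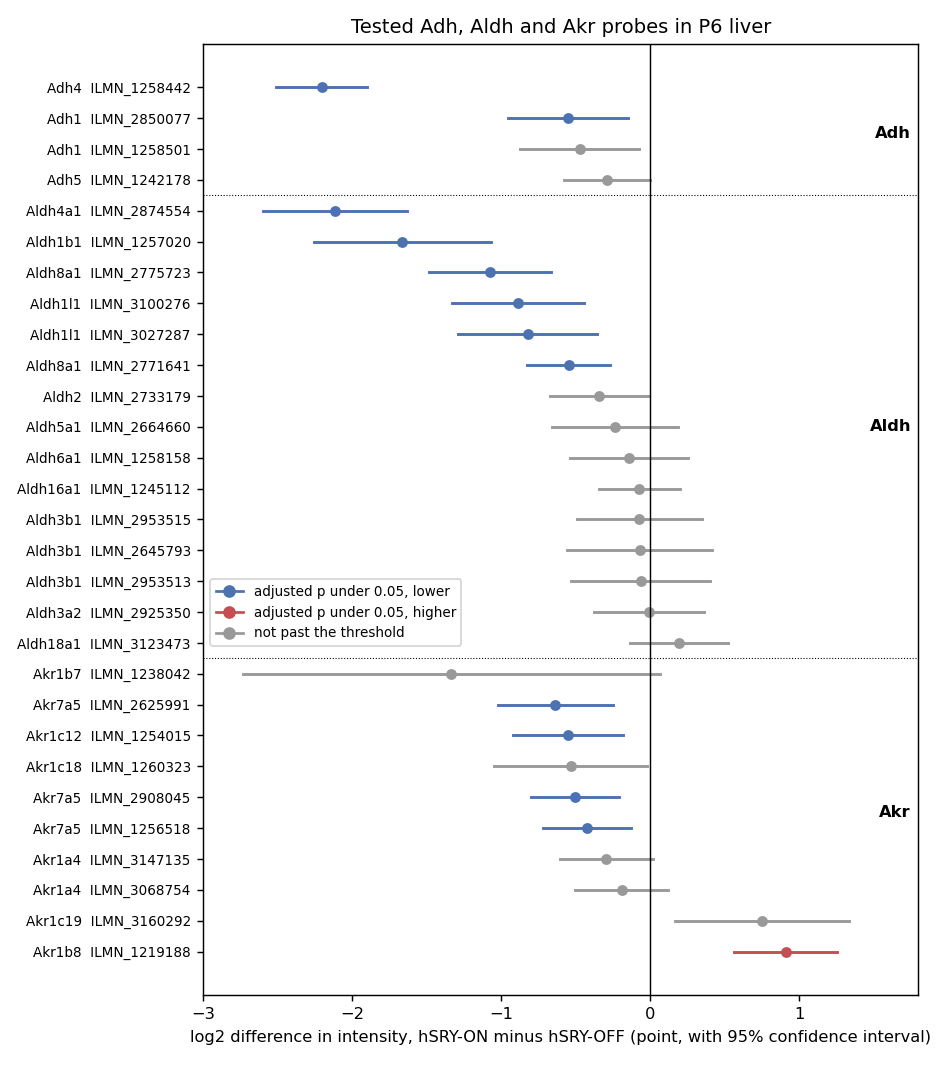
Fitted log2 difference in intensity (point) with its 95% confidence interval (line) for each of the 29 tested probes, grouped as Adh, Aldh and Akr and coloured by call. All 4 Adh points lie below 0, the Aldh points run from -2.12 (Aldh4a1) to 0.19 (Aldh18a1), and Akr1b8 is the only member called higher.

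Of the 15 tested Aldh probes 6 were called lower and 0 higher (limma, 7 and 0 at an unadjusted p under 0.05). Among all tested probes 17.3% were called lower and 15.8% higher. The 6 probes belonged to Aldh4a1, Aldh1b1, Aldh8a1 and Aldh1l1. The median Aldh difference was -0.24 on the log2 scale. Aldh4a1 encodes the mitochondrial enzyme that completes the breakdown of proline to glutamate. The log2 intensity of Aldh4a1 (ILMN_2874554) was 14.16, 13.96 and 14.13 in hSRY-OFF and 11.75, 11.72 and 12.43 in hSRY-ON livers. The hSRY-ON livers were all lower, with replicate 3 nearest to the hSRY-OFF livers. The difference of -2.12 ± 0.21 (SE, adjusted p 0.000573 by limma) was a 4.33-fold fall.

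Aldh1b1 encodes a mitochondrial enzyme that oxidises acetaldehyde and other short aldehydes. The log2 intensity of Aldh1b1 (ILMN_1257020) was 8.70, 8.94 and 8.78 in hSRY-OFF and 6.88, 6.79 and 7.75 in hSRY-ON livers. The groups were apart, and hSRY-ON replicate 3 again had the highest value of its group. The difference was -1.66 ± 0.25 (SE, 3.17-fold, adjusted p 0.00322 by limma). For Aldh2, the mitochondrial enzyme that clears most acetaldehyde from ethanol, the hSRY-ON values of 13.97, 14.11 and 13.72 lay just under the hSRY-OFF values of 14.32, 14.34 and 14.17. The Aldh2 difference of -0.35 (95% confidence interval -0.67 to -0.02) was not past the threshold (adjusted p 0.0960 by limma).

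Aldh8a1 encodes an enzyme of the kynurenine pathway of tryptophan breakdown, and had 3 probes. The log2 intensity of ILMN_2775723 was 12.16, 12.32 and 12.25 in hSRY-OFF and 11.28, 11.41 and 10.81 in hSRY-ON livers. Here hSRY-ON replicate 3 was the lowest array, and the difference was -1.08 ± 0.17 (SE, 2.11-fold, adjusted p 0.00401 by limma). The dim probe ILMN_2771641 had a detected signal in 3 hSRY-OFF livers and in 0 hSRY-ON livers, at 5.83, 5.99 and 5.83 and at 5.43, 5.31 and 5.26. It was at least 1.13-fold lower (adjusted p 0.0120 by limma), but leaving out hSRY-OFF replicate 2 ended the call (adjusted p 0.0543). The call of this dim probe was also lost without background correction, under quantile or trimmed-mean scaling, and with normexp correction at an offset of 50. Among all alternatives its difference was as small as -0.16 and its adjusted p as high as 0.183 (limma). The third Aldh8a1 probe was detected on 0 arrays.

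Aldh1l1 encodes the cytosolic enzyme that turns formyl-tetrahydrofolate into tetrahydrofolate and CO2. With ILMN_3100276 its log2 intensity was 11.40, 11.68 and 11.78 in hSRY-OFF and 10.66, 11.08 and 10.47 in hSRY-ON livers. The groups did not overlap, and the difference was -0.89 ± 0.19 (SE, 1.85-fold, adjusted p 0.0117 by limma). The dim Aldh1l1 probe ILMN_3027287, detected on 2 hSRY-ON arrays, gave -0.82 ± 0.20 (SE, adjusted p 0.0183 by limma). The call of the dim probe was lost without hSRY-OFF replicate 1 (adjusted p 0.0564), hSRY-OFF replicate 2 (0.0695) or hSRY-ON replicate 1 (0.0525), while the other probe kept its call with each array left out. The dim probe also lost its call under trimmed-mean scaling without background correction. Among all alternatives the difference of the dim probe was as small as -0.28. Aldh1l2, the mitochondrial counterpart, was not detected on any hSRY-OFF array with either of its 2 probes.

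**Figure D3:**
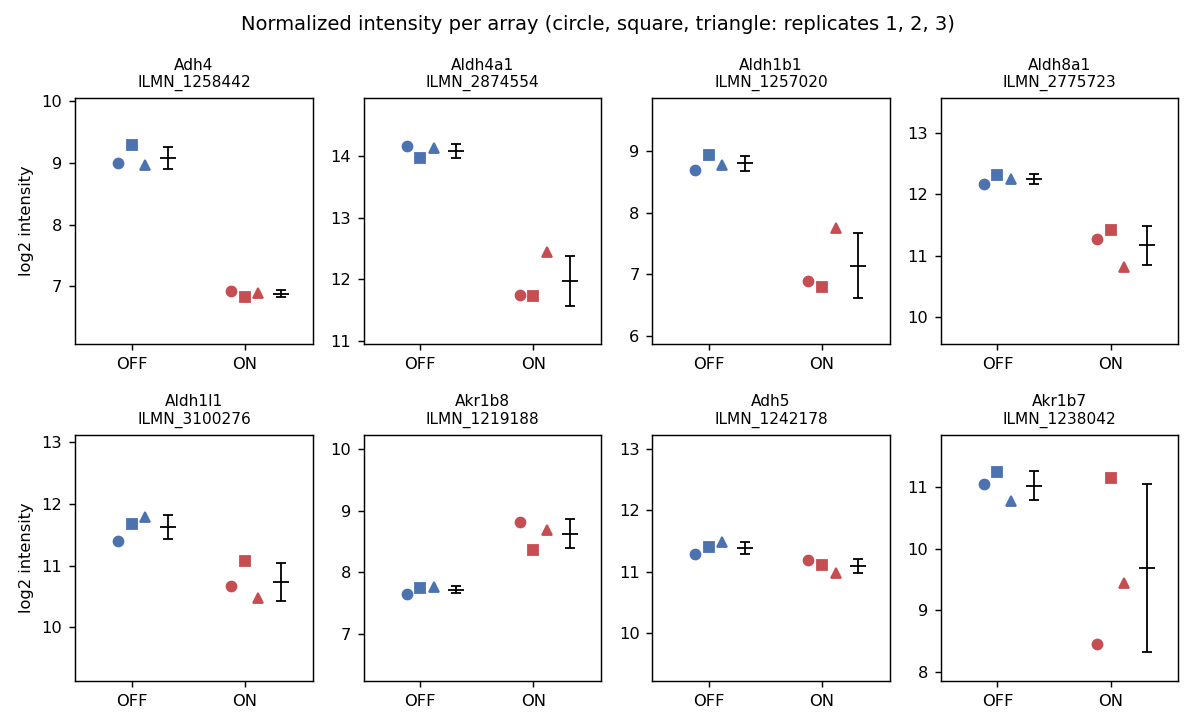
Normalized log2 intensity of 8 member probes on each array, hSRY-OFF in blue and hSRY-ON in red, with circle, square and triangle for replicates 1 to 3 and the mean ± SD of each group in black (every panel spans 4 log2 units). Adh4, Aldh4a1, Aldh1b1, Aldh8a1 and Aldh1l1 are lower and Akr1b8 higher on all 3 hSRY-ON arrays, Adh5 differs little, and Akr1b7 is spread from 8.46 to 11.15 in the hSRY-ON group.

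The other tested aldehyde dehydrogenases gave differences between -0.24 and 0.19 on the log2 scale and none of them passed the threshold (0 of 8 probes, limma, and 0 at an unadjusted p under 0.05). Aldh5a1, which oxidises succinic semialdehyde from GABA, differed by -0.24 (95% confidence interval -0.66 to 0.19). Aldh6a1, which acts on methylmalonate semialdehyde from valine, differed by -0.14 (-0.54 to 0.26), and Aldh16a1 by -0.08 (-0.35 to 0.20). Aldh3a2, the fatty aldehyde dehydrogenase, differed by -0.01 (-0.38 to 0.36). The 3 probes of Aldh3b1, an enzyme of lipid aldehydes, gave -0.07, -0.06 and -0.07, and on each the hSRY-ON replicate 3 value was the highest of all 6 arrays. Aldh18a1, which makes the proline precursor from glutamate and so runs opposite to Aldh4a1, had values of 8.08, 8.07 and 8.04 in hSRY-OFF and 8.51, 8.09 and 8.19 in hSRY-ON livers. These did not overlap, but the difference of 0.19 (-0.13 to 0.52) was not past the threshold (adjusted p 0.319 by limma).

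The aldo-keto reductases moved in both directions, with 4 of 10 tested probes called lower and 1 called higher. The shares among all tested probes were 17.3% and 15.8%. The median Akr difference was -0.46 on the log2 scale. Akr1b8, a reductase of the aldose reductase group, was the only member called higher. Its log2 intensity (ILMN_1219188) was 7.65, 7.75 and 7.76 in hSRY-OFF and 8.82, 8.36 and 8.69 in hSRY-ON livers. All hSRY-ON values lay above all hSRY-OFF values, by a difference of 0.91 ± 0.15 (SE, 1.88-fold, adjusted p 0.00409 by limma).

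Akr1b7, a close relative that lies in the same cluster on chromosome 6 (Akr1b3, Akr1b8, Akr1b10 and Akr1b7 in RefSeq order), was read by ILMN_1238042. The log2 intensity was 11.04, 11.25 and 10.78 in hSRY-OFF and 8.46, 11.15 and 9.45 in hSRY-ON livers. Replicates 1 and 3 of the hSRY-ON group were below every hSRY-OFF liver, whereas replicate 2 lay within the hSRY-OFF range, and the SD was 1.36 against 0.24. The difference of -1.34 ± 0.60 (SE) was not past the threshold (adjusted p 0.124 by limma). Without hSRY-ON replicate 2 it was -2.07 (adjusted p 0.00459), and without hSRY-ON replicate 1 it was -0.73 (adjusted p 0.303). Akr1b3, the aldose reductase of the polyol pathway, was detected on 0 arrays.

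Akr7a5, which reduces succinic semialdehyde and the dialdehyde of aflatoxin, was called lower with each of its 3 probes. The differences were -0.64 ± 0.16 (ILMN_2625991, adjusted p 0.0226), -0.50 ± 0.13 (ILMN_2908045, adjusted p 0.0207) and -0.43 ± 0.13 (ILMN_1256518, SE, adjusted p 0.0388, all by limma), or 1.55-, 1.42- and 1.34-fold. The groups did not overlap with any of the 3 probes. All 3 calls were lost on leaving out hSRY-OFF replicate 1 (adjusted p 0.0833, 0.0502 and 0.0908 in the same order), hSRY-OFF replicate 2 (0.0756, 0.0746 and 0.0926), hSRY-OFF replicate 3 (0.0522, 0.0696 and 0.114) or hSRY-ON replicate 1 (0.0689, 0.0643 and 0.0947). The third also fell short without hSRY-ON replicate 3 (0.0705). For Akr1a4 (now Akr1a1), the aldehyde reductase that takes part in vitamin C synthesis, 2 probes gave -0.30 (95% confidence interval -0.61 to 0.02) and -0.19 (-0.51 to 0.12), and neither was past the threshold.

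The Akr1c reductases, which act on steroids and prostaglandins and lie side by side on chromosome 13, were tested for 3 of 8 genes. Akr1c12 (ILMN_1254015) was called lower, at 11.79, 11.99 and 11.64 in hSRY-OFF and 11.39, 11.36 and 11.00 in hSRY-ON livers (-0.55 ± 0.16, SE, 1.47-fold, adjusted p 0.0335 by limma). The groups did not overlap, but the adjusted p was 0.0975, 0.117, 0.0514 and 0.0545 without hSRY-OFF replicates 1 and 2 and hSRY-ON replicates 1 and 3. Akr1c18, which inactivates progesterone, differed by -0.53 ± 0.22 (SE, adjusted p 0.101 by limma), and by -0.72 (adjusted p 0.0476) without hSRY-ON replicate 1. Akr1c19 stood at 8.53, 8.02 and 7.98 in hSRY-OFF and 9.14, 8.43 and 9.21 in hSRY-ON livers, an overlap of 1 array in each group, and its difference of 0.75 ± 0.25 (SE) was not past the threshold (adjusted p 0.0552 by limma). Without hSRY-ON replicate 2, the Akr1c19 difference was 0.996 (adjusted p 0.0128). Genes of this cluster are close copies of each other, and cross-hybridisation between their probes was not tested.

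The remaining 24 member probes were not tested. Of these, 21 were detected on 0 of the 6 arrays and 3 on 1 hSRY-ON array each. Not detected with any probe were the retinal dehydrogenases Aldh1a1 and Aldh1a3, Aldh3a1, the lysine enzyme Aldh7a1, the carnitine-synthesis enzyme Aldh9a1, Adh7, Akr1b3, Akr1c6, Akr1c13, Akr1c14, Akr1c20, Akr1c21, the bile acid 5β-reductase Akr1d1 and Akr1e1. The retinal dehydrogenase Aldh1a2, Aldh1a7 and Aldh1l2 were the genes detected on 1 array. Adh5, Aldh5a1 and Aldh8a1 had undetected probes beside a bright one, so a probe without signal does not give the level of its gene.

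The genes of neighbouring metabolic steps were read from the same fit. Of 104 tested probes for these genes (100 of the 105 listed genes had a probe), 55 were lower and 14 higher in hSRY-ON livers, and 35 were not past the threshold. Called lower were 52.9% and called higher 13.5%, against 17.3% and 15.8% of all tested probes. The counts of the single lists below are to be read against the same shares. The median difference was -0.50 on the log2 scale, against 0.02 for all tested probes. The number higher was 6 and 7 when hSRY-OFF replicates 1 and 2 were left out in turn, and 8 and 9 when replicates 1 and 2 of the hSRY-ON group were. Beside Adh4, Adh1 and Aldh1b1 in alcohol oxidation, Cyp2e1, the cytochrome P450 that oxidises ethanol, was lower by -2.84 and Cat, the catalase of peroxisomes, by -0.87. In this list of 6 tested probes 4 were lower, and Acss1, which activates acetate in mitochondria, was the only one higher (0.94). Of 16 tested probes for retinol and retinal handling, 10 were lower and 0 higher (limma, 11 and 0 at an unadjusted p under 0.05). The median there was -0.72, and the largest fall was that of Rdh5, a retinol dehydrogenase (-2.85).

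Around Aldh4a1 all 11 tested probes of proline, ornithine and glutamate metabolism passed the threshold, 8 lower and 3 higher. Prodh2, which oxidises hydroxyproline upstream of Aldh4a1, was lower by -1.47 with the probe of the largest fall. Prodh, the proline oxidase that feeds Aldh4a1, was higher by 1.27, and was detected on 2 of the 3 hSRY-OFF arrays. Around Aldh1l1, 6 of 15 probes of the folate cycle were lower and 2 higher. The extremes were Shmt1, the cytosolic serine hydroxymethyltransferase (-1.18), and Mthfd2, an enzyme of the mitochondrial branch (1.39).

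For the steps next to Aldh5a1, Aldh6a1, Aldh7a1 and Aldh9a1, 9 of 16 probes were lower and 0 higher (limma, 11 and 0 at an unadjusted p under 0.05), with the largest fall at Sardh, the sarcosine dehydrogenase (-1.55). In the polyol and fructose list 4 of 6 were lower and 0 higher (4 and 0 at an unadjusted p under 0.05, limma), led by Sord, the sorbitol dehydrogenase (-1.96). In the bile acid list 6 of 13 were lower and 3 higher, from Hsd3b7, which acts early in bile acid synthesis (-1.63), to Cyp27a1, the sterol 27-hydroxylase (1.42). Among other carbonyl-reducing and aldehyde-oxidising enzymes 8 of 21 were lower and 5 higher, with Hsd17b2 at -1.54 and Hsd17b11 at 1.10, both hydroxysteroid dehydrogenases, while the aldehyde oxidase Aox3 was not past the threshold (-0.42, adjusted p 0.296 by limma).

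**Figure D4:**
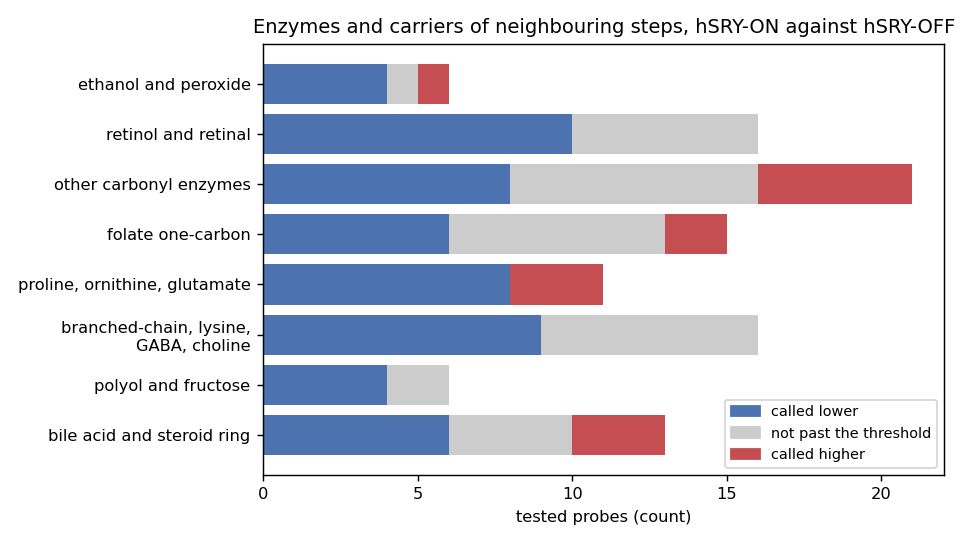
Number of tested probes called lower, not past the threshold and called higher in hSRY-ON livers, stacked for each of 8 lists of genes whose enzymes act next to the members. Lower calls outnumber higher calls in every list, and no probe is called higher in the retinol, branched-chain and polyol lists. Among all tested probes 17.3% are called lower and 15.8% higher.

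Markers of several cell types moved beside the members. Their counts are to be read against the 17.3% of all tested probes called lower and the 15.8% called higher. Of the 8 listed hepatocyte markers 7 were detected on all 6 arrays, and Fgb was detected on 1. Of 9 tested hepatocyte marker probes 4 were lower and 0 higher (limma, 4 and 0 at an unadjusted p under 0.05), and the summed normalized intensity of the list was 193503 to 197502 in hSRY-OFF and 175191 to 182919 in hSRY-ON livers. The 4 lower probes were those of Alb (-1.11), Serpina1a (-1.11 and -0.91) and Ttr (-0.46). Apoa1, Apoa2, Ahsg and Trf gave differences between -0.14 and 0.01. The Alb probe was dim, with a mean log2 intensity of 7.94 without and 6.82 with active hSRY. Whether it reads the level of Alb was not tested. Apoa1, Apoa2, Trf and the brighter Ahsg probe had group means of 14.94 to 15.42. Whether differences are compressed at such high intensities was not tested. Of 10 erythroid probes 5 were higher and 0 lower (sums of 64921 to 85155 and 84779 to 96744). The Hba-a1 probe was at the same log2 intensity of 15.50 on all 6 arrays, and without it the erythroid sums were 18673 to 38907 and 38531 to 50496. Of 11 stellate and fibroblast probes 5 were higher and 2 lower (8473 to 9516 and 19184 to 21071), and 4 of those 5 were probes of Acta2, named after its values were seen. Without Acta2 the sums were 5911 to 7132 and 5407 to 6997, so that the higher sum of the list was that of Acta2. Of 8 endothelial probes 3 were higher and 1 lower (8894 to 10657 and 7723 to 9606), and of 11 macrophage probes 1 was higher and 4 were lower (10502 to 13433 and 7977 to 10049). Of 9 neutrophil probes 0 were called (limma, 1 at an unadjusted p under 0.05), with sums of 45472 to 52432 and 30147 to 90832. The neutrophil sum of 90832 was that of hSRY-ON replicate 3, while hSRY-ON replicates 1 and 2 were at 30147 and 34917, below every hSRY-OFF liver. Replicate 3 was also the hSRY-ON liver nearest to the hSRY-OFF livers for Aldh4a1 and Aldh1b1 and the highest of all for Aldh3b1. It was the hSRY-ON liver furthest below the hSRY-OFF livers for both Adh1 probes, Adh5, Aldh2, Akr1c12 and the brighter probes of Aldh8a1 and Aldh1l1. Of 5 biliary probes those of Cftr, Krt19 and Sox9 were detected on 0 arrays, and 1 was tested, without a call (sums of 200 to 248 and 189 to 238). The part of these cell types in the differences of the members was not tested.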

How the data were processed

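The authors hybridised total RNA from 6 livers (3 hSRY-OFF, 3 hSRY-ON) to Illumina MouseRef-8 BeadChips. They deposited the mean bead intensity of each probe on a linear scale, neither background-subtracted nor normalized (lowest value 108), and a detection p-value per probe and array, taken against that array's negative controls. The labels name limma without a version, the study names TCC with no model, and scanner settings were not given in the sources used here. Groups came from the sample labels, and 0 columns lacked a sample.

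Background was removed with the nec function of limma 3.58.1 at an offset of 16 (R 4.3.3), and quantile-normalized values were put on the log2 scale. The offset shrinks the differences of dim probes. The 10734 probes with a detection p under 0.01 on 3 or more arrays were fitted (lmFit, eBayes, no covariates), with p-values adjusted over all of them. Probes of a gene were kept apart. Where a group had no detected array, the brighter mean was set against the higher of the array's lowest detected signal and the probe's own value ("at least"). Of the 18138 symbols, 14307 were current in RefSeq (GRCm38.p6), 2927 matched through an older name and 904 did not match. Members were chosen by symbol, and members, lists and tests were chosen with earlier results of these data known. Array values were to be given for called members with a difference of at least 1, members undetected in a group and all tested Adh genes. From each list of neighbouring steps the called probes with the largest rise and fall were named, with Cyp2e1, Cat and Aox3. Array values of other members were added after they had been seen. In 5 simulated sets with 200 changed probes each, among 10735 to 10737 tested probes, 91.1% of 2-fold and 98.8% of 4-fold changes were called. Of the calls, 5.39% were false. The noise of every simulated array was drawn from the hSRY-OFF spread, which was smaller than that of hSRY-ON (median SD 0.14 against 0.21). Far fewer probes changed than were called in the livers, so these rates may not hold for the livers. Alternatives covered background correction, scaling, filter, variance model, threshold and each array left out. The number of arrays limits the precision.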

Additional observations from a re-analysis of the deposited data

Results flagged for a closer look

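3 member probes outside the tested set had a signal on a single hSRY-ON array and were detected on 0 hSRY-OFF arrays. Aldh1l2 (ILMN_2898319), the mitochondrial formyl-tetrahydrofolate dehydrogenase, reached a log2 intensity of 6.36 on hSRY-ON replicate 1, where the highest hSRY-OFF value was 4.72. The other hSRY-ON arrays were at 5.51 and 5.11, above all hSRY-OFF values but not detected, and the second Aldh1l2 probe was detected on 0 arrays. Aldh1a7 (ILMN_1218981), a relative of the retinal dehydrogenases, reached 5.83 on hSRY-ON replicate 3, where the highest hSRY-OFF value was 5.14. Aldh1a2 (ILMN_2630753), a retinal dehydrogenase, reached 5.87 on hSRY-ON replicate 2, where the highest hSRY-OFF value was 5.57, and its second probe was detected on 0 arrays. None of the 3 was tested between the groups.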

How the results depend on the processing

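Of the 13 called member probes, 6 kept their call under every alternative in which single probes were refitted, namely Adh4, Aldh4a1, Aldh1b1, Akr1b8 and the brighter probes of Aldh8a1 and Aldh1l1. Of the 16 others, 8 were called under at least 1 alternative, and 0 of 490 values reversed a call. Against 12 lower and 1 higher, the members called lower were 4 at an adjusted p under 0.01 and 5 in a test against a 1.2-fold change. The members called higher were 2, and the Akr probes 2, when Akr1c19 was added without background correction, with normexp or nec at an offset of 50, with a trended and robust variance or with array weights. Lower Adh probes were 4 without background correction, under quantile normalization or trimmed-mean (TMM) scaling, and 1 without a filter, at 0.01 and against 1.2-fold. Lower Aldh probes were 3 at 0.01, and lower Akr probes 0 at 0.01, 0 against 1.2-fold and 2 with 1 probe per symbol. Over all tested probes 693 were higher and 972 lower at 0.01, and 790 and 1047 against 1.2-fold. For the genes of neighbouring steps, alternatives chosen after seeing the data, the higher probes were 8 without a filter, 4 at 0.01, 8 against 1.2-fold and 9 with 1 probe per symbol. With median scaling 59.5% of all calls were lower. The cause was not tested for any of these changes.

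With each array left out, the ranges were 893 to 1944 higher and 1141 to 2116 lower for all tested probes, 1 to 2 and 5 to 14 for the members, 1 to 3 lower for Adh, 4 to 6 lower for Aldh, 1 to 2 higher and 0 to 5 lower for Akr, and 6 to 12 higher and 43 to 55 lower for the neighbouring steps.

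With the replicate number as a block, 2 members were higher and 12 lower, and for Akr 2 were higher and 3 lower, over 1565 higher and 1645 lower probes in all. The block ended the call of 1 Akr7a5 probe (adjusted p 0.0768) and called Akr1c19 and the second Adh1 probe. Whether same-numbered samples share more than a number was not given in the sources used here. Their deviations from the group means correlated by 0.02, 0.10 and 0.05, and those of samples with unlike numbers by -0.17 to 0.13. Only 1 of 3 hSRY-ON samples correlated best with its own number. With 3 samples per group these values cannot decide whether samples were paired. Dim probes near the detection limit, such as those of Aldh8a1 and Aldh1l1, are where signal over background limits what can be called.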
